A study of Homo sapiens with 8 samples.

Results

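The *ORC5Δ*-only origins are replication origins that were listed for *ORC5Δ* cells and overlapped no listed origin of WT, *ORC1Δ*, or *ORC2Δ* cells. They were chosen by the peak calls themselves, as intervals of the *ORC5Δ* list on chromosomes 1 to 22 and X that share not a single base with an interval of the other 3 lists. There were 6449 of them among 41328 *ORC5Δ* origins (15.6%, 95% Wilson interval 15.3% to 16%), and the 4 lists together hold 142864 origins. The same rule gave 4296 *ORC1Δ*-only origins (12.8% of their list), 4806 *ORC2Δ*-only origins (12.7%), and 2466 WT-only origins (8.17%).

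The study asked where replication starts when a subunit of the origin recognition complex is missing. Its 4 lines are HCT116 colon cancer epithelial cells, here called WT, and 3 lines derived from them in which *ORC1*, *ORC2*, or *ORC5* was deleted with CRISPR–Cas9. All 4 lines, WT included, are p53−/−, and the labels do not say whether a knockout line is a single clone. Per the study, ORC5 and ORC4 are depleted from the chromatin of *ORC5Δ* cells, while other subunits are still bound there. SNS-seq, the sequencing of short nascent strands protected from lambda exonuclease, was run on 2 biological replicates per line, 8 samples in all. A peak had to be found by MACS2 in both replicates to be listed as an origin. The count tables used here are sums over both replicates, and reads of single replicates were not analysed here. No spread between replicates and no test between lines is therefore given, and the intervals given here stand for counting error or for the number of origins alone.

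In human cells, the origin recognition complex binds DNA in G1 and, with CDC6 and CDT1, loads the MCM2–7 helicase, which licenses the site for a later start of replication. Many more sites are licensed than fire in one S phase. Human origins have no fixed sequence, but SNS-seq origins are often GC-rich, with more G than C on one strand, and often hold G-runs that can fold into a G-quadruplex (G4), a stack of guanine tetrads.

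The 9 stretches printed here come from *ORC5Δ*-only origins and show the range of sequence in the set. Each is hg38 sequence around the window of the origin that is densest in G, on the strand rich in G there (for BTBD8, around the midpoint), and capitals mark runs of 3 or more G. The first 5 come from origins with a high fold in *ORC5Δ* cells or a high GC skew, the next from an origin with a low fold, and the last 3 from an origin with very many reads, one in a colorectal cancer gene, and one of the least GC-rich.

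RSPH1 intron, chr21:42489234-42489323, forward strand: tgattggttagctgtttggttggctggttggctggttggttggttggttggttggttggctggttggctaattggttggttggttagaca
SLC30A4-AS1 intron, chr15:45463552-45463641, reverse strand: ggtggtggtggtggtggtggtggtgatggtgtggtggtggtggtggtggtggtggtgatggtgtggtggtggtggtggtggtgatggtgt
RIPOR2 intron, chr6:24927264-24927334, reverse strand: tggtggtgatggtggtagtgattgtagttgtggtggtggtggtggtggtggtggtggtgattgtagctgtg
end of chromosome 1, chr1:248946127-248946216, forward strand: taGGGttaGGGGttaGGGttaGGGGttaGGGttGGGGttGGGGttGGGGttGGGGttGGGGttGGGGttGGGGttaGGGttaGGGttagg
COL6A3 intron, chr2:237397432-237397521, forward strand: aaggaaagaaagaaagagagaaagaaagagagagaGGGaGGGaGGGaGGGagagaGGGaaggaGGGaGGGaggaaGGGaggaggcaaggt
PTPRT, chr20:42270240-42270329, forward strand: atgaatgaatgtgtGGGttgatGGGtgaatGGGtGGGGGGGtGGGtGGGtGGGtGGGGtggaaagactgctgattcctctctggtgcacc
AFAP1L2, chr10:114304993-114305082, forward strand: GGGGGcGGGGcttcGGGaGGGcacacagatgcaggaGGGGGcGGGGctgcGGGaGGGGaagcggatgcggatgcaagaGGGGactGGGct
EGFR intron, chr7:55133607-55133696, reverse strand: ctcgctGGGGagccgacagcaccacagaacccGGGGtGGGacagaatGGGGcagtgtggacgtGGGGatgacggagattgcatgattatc
BTBD8 intron, chr1:92087430-92087519, forward strand: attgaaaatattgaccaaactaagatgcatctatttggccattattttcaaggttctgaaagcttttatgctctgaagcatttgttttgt

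In the RSPH1, SLC30A4-AS1, and RIPOR2 introns the stretch is a repeat of short GG units with no run of 3 or more G, whereas PTPRT and AFAP1L2 carry the dense G-runs of a G4 motif. The COL6A3 and EGFR stretches hold 8 and 5 G-runs. Stretches from other origins with high folds, at MGA, near IGF2, and at LINC01717, are not printed and held 1, 2, and 2 G-runs. The stretch at the end of chromosome 1 is made of telomere-type repeats. The one at the midpoint of the BTBD8 origin has no G-run at all. Unlike the others, it was not taken at the window densest in G, so it does not show whether that origin holds G-runs elsewhere.

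Scaled to the depth of each line, the reads at these sites were nearly the same in WT and *ORC5Δ* cells. Over the 6449 origins, WT cells had a median of 72 reads (quartiles 61 and 89, range 29 to 1514) and *ORC5Δ* cells a median of 96 reads (quartiles 83 and 117, range 50 to 1718). The *ORC5Δ* line had 1.24 times as many reads in all origins of the table (8523971 against 6878409), so the medians after scaling to the total of each line were 10.5 and 11.3 RPM (reads scaled to the summed reads of the line over all origins of the table). Not one *ORC5Δ*-only origin was without WT reads. The median log2 fold of *ORC5Δ* over WT was 0.10, or 1.07-fold, with 5% of the origins below −0.22 and 5% above 0.49. In 1987 origins (30.8%) the WT level was the higher one, although none of these sites is in the WT list. Over all origins of the table the share was 50.6%, and over those shared with another knockout but not with WT it was 27.9%.

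By the study's threshold of 1.5-fold in RPM, 157 of the 6449 origins (2.43%) were up in *ORC5Δ* cells, against 2.08% of all 46463 origins of the table. Down by 1.5-fold were 4 (0.062%), against 0.680% of all origins. At a lower log2 threshold of 0.32, 1047 were up (16.2%) and 95 down (1.47%), against 8.74% and 6.41% of all origins. At 2-fold, 3 were up (0.0465%) and 0 down, against 0.269% and 0.0452%. These calls use the same contrast that chose the set, so the counts are a description only. The 95% Clopper-Pearson interval of the log2 fold, which covers counting error alone, lay above 0 for 333 origins (5.16%, against 5.84% of all origins), below 0 for 36 (0.558%, against 4.76%), and included 0 for 6080 (94.3%).

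**Figure D1:**
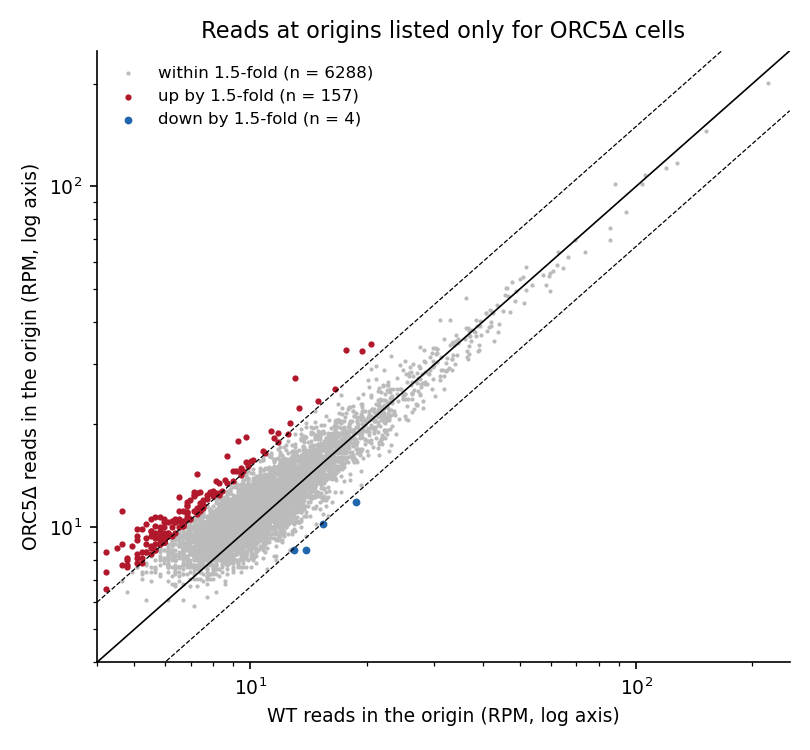
Reads of WT (horizontal axis) and *ORC5Δ* cells (vertical axis) at each of the 6449 *ORC5Δ*-only origins, in RPM on log axes. The solid line marks equal levels and the dashed lines 1.5-fold. Most points lie between the dashed lines, with 157 above and 4 below them.

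Origins that *ORC5Δ* cells shared with another knockout, but not with WT, had a like median fold but a longer upper tail. The 9952 *ORC5Δ* origins that were absent from the WT list but present in *ORC1Δ* or *ORC2Δ* cells had a median log2 fold of 0.12. Of them, 645 (6.48%) were up by 1.5-fold, and 5% lay above a log2 fold of 0.66. Origins listed for both WT and *ORC5Δ* cells had a median of −0.04, and those listed for WT but not for *ORC5Δ* cells a median of −0.20. The 4 distributions overlapped widely.

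**Figure D2:**
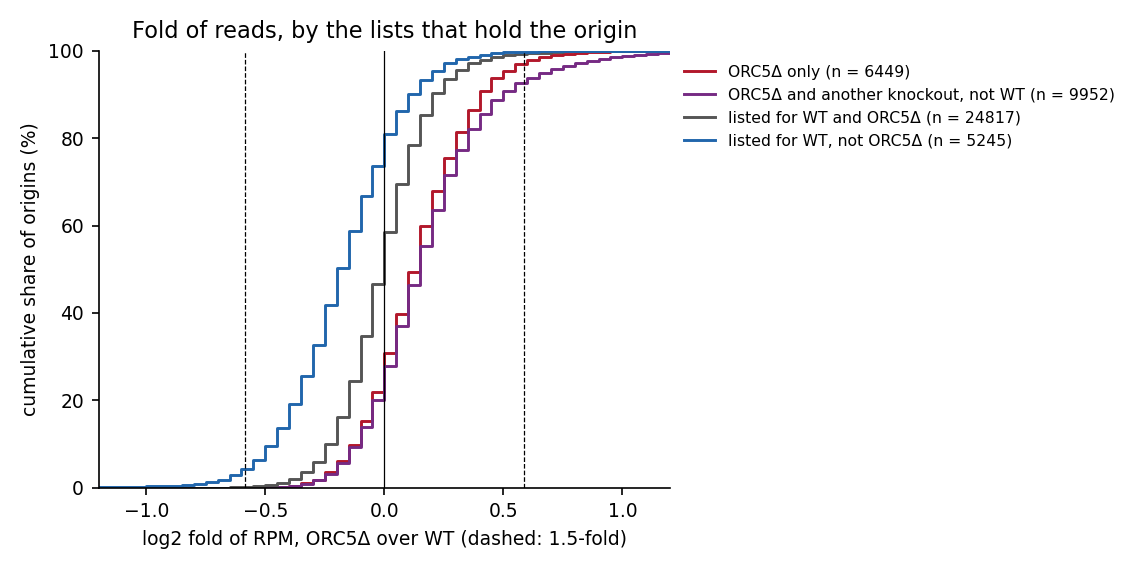
Cumulative share of origins (vertical axis, %) by log2 fold of RPM of *ORC5Δ* over WT (horizontal axis), for 4 sets of origins in the table of WT and *ORC5Δ* reads. Solid and dashed vertical lines mark a log2 fold of 0 and 1.5-fold. The *ORC5Δ*-only curve (median 0.10) runs close to that of origins shared with another knockout (median 0.12), except at high folds.

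WT reads at the *ORC5Δ*-only origins overlapped the lower range of origins listed for WT. For origins listed for both lines the median was 146 WT reads, and 10% had fewer than 89, the upper quartile of the *ORC5Δ*-only origins. Origins listed for WT but not for *ORC5Δ* cells were weaker, with a median of 95 WT reads, and 10% of them had fewer than 69. At least 69 WT reads were counted at 3751 *ORC5Δ*-only origins (58.2%), and at least 95 at 1297 (20.1%). Measured as WT reads per kb of origin, the medians were 168 for the *ORC5Δ*-only origins and 208 for the origins listed for WT but not for *ORC5Δ* cells.

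All listed origins had a near neighbour in their own list. Every WT origin had another WT origin within 26017 bp, and in *ORC1Δ* cells the largest such gap was 25683 bp. For the *ORC2Δ* list it was 21839 bp and for the *ORC5Δ* list 20458 bp. The gaps ended at these limits without a tail. On all contigs, 1193 of 30394 WT origins had their nearest neighbour in the last 10% of the distance, and none had it farther away. Isolated origins were thus not seen in any list. Whether isolated peaks were found and left out cannot be told from the lists. In the study's methods, peaks nearer to each other than the median spacing were grouped as initiation zones.

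Of the *ORC5Δ*-only origins, 3873 (60.1%, 58.9% to 61.2%) lay farther than 26017 bp from every WT origin of the list, so that a single WT origin there would have been more isolated than any that is listed. For 2950 (45.7%) the nearest origin was beyond the respective limit in all 3 other lists. The remaining 2576 (39.9%) lay within 26017 bp of a WT origin. WT reads were alike in the 2 groups, with a median of 73 beyond the limit and 71 within it. The median log2 fold was 0.08 beyond the limit and 0.13 within it, and 89 (2.30%) and 68 origins (2.64%) were up by 1.5-fold, against 2.08% of all origins of the table. Of the *ORC1Δ*-only and *ORC2Δ*-only origins, 66.6% and 59.2% likewise lay farther than 26017 bp from every WT origin.

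**Figure D3:**
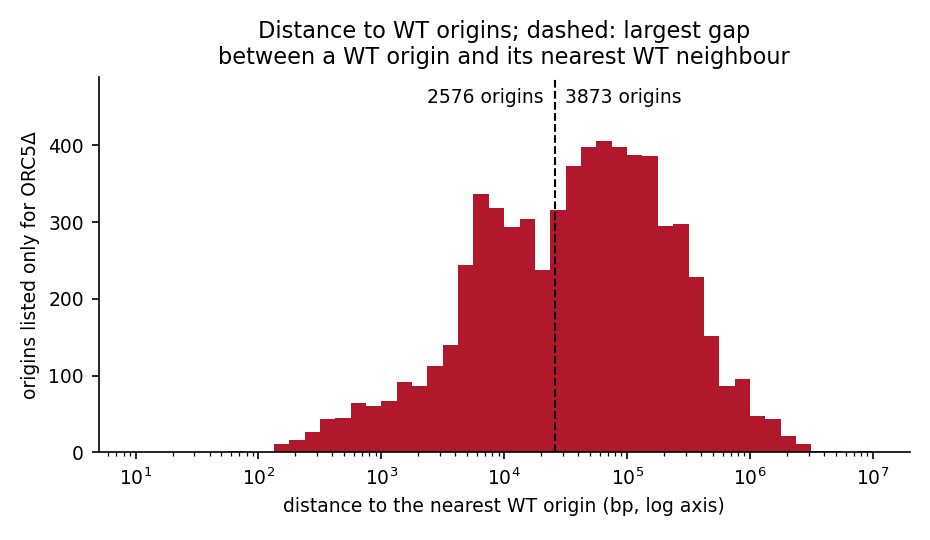
Number of *ORC5Δ*-only origins (vertical axis) by distance to the nearest WT origin (horizontal axis, bp, log axis). The dashed line at 26017 bp is the largest gap between a WT origin and its nearest WT neighbour, and 3873 of the 6449 origins lie beyond it.

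The distance to the nearest origin of any other line had a median of 18385 bp (quartiles 5768 and 63370), and 453 origins (7.02%) were within 1 kb of one. That nearest origin was an *ORC2Δ* origin for 42.9%, an *ORC1Δ* origin for 31.1%, and a WT origin for 25.9%. These lists hold 37811, 33530, and 30195 origins, in the same order, and the part of list size in these shares was not tested. *ORC1Δ*-only origins had a median distance of 25438 bp and *ORC2Δ*-only origins one of 17666 bp. Within the *ORC5Δ* list, the origins joined at gaps of up to 20458 bp into 11796 clusters. *ORC5Δ*-only origins were found in 4150 of these, and 1389 clusters, with 2960 of the origins (45.9%), held nothing else. Most of the latter (1231) were pairs, and the largest had 5 origins.

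The few origins closest to the edge of the rule had like folds on both sides. Their places differed, while their ranges of GC content nearly met. They are too few to stand for all origins near the edge. The *ORC5Δ*-only origins closest to an origin of another line lay in introns of *SYNE3*, *DNAJB12*, and *DYDC1*, at gaps of 2, 11, and 21 bp. The *ORC5Δ* origins with the smallest overlap lay at *NFYC*, *CACNB1*, and *KPNA2*, with 4, 26, and 74 bp shared. Log2 folds were 0.09, 0.06, and 0.18 just inside the rule and 0.07, 0.19, and 0.10 just outside it. Those inside had GC contents of 55.3%, 56.3%, and 44.4% and no CpG island, whereas those outside had 56.8%, 75.7%, and 67.0% and lay at a UTR and a CpG island.

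The highest fold among origins with at least 100 reads of both lines lay in an intron of *RSPH1*, which encodes a radial spoke protein of motile cilia (chr21:42489060-42489491). It had 32 WT reads and 95 *ORC5Δ* reads, or 4.65 and 11.1 RPM, a log2 fold of 1.26 (0.67 to 1.89). Its repeat of GG units, shown above, includes a 27-bp exact run of the unit AACC or its complement. An origin in an intron of the lncRNA gene *SLC30A4-AS1* (chr15:45463340-45464037) had 90 and 233 reads, a log2 fold of 1.06 (0.71 to 1.43). An origin in an intron of *MGA*, which encodes a partner of MAX, had 29 and 72 reads (log2 fold 1.00, 0.36 to 1.68). These 3 are the origins with 2-fold or more.

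The next 3 lay 63777 bp from *IGF2*, the gene of a fetal growth factor, in an intron of *RIPOR2*, and in an exon of the lncRNA gene *LINC01717*. Their log2 folds were 0.98 (50 and 122 reads), 0.95 (35 and 84 reads), and 0.95 (31 and 74 reads). Of these 6, the 4 at *RSPH1*, *SLC30A4-AS1*, *IGF2*, and *RIPOR2* had an absolute GC skew between 0.64 and 0.96, far above the median of 0.333 of the whole set. None of the 6 reached the G4Hunter score of 1.52 used here to call a G4 motif.

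Of the 6 origins with the lowest folds, 4 had a G4 motif, as did 76.1% of the whole set. The 2 lowest lay at *TSPAN14*, which encodes a tetraspanin (96 WT and 73 *ORC5Δ* reads, log2 fold −0.70, −1.16 to −0.25), and at *PTPRT*, a receptor tyrosine phosphatase gene (129 and 101 reads, −0.66, −1.05 to −0.28). The others were at *ARHGEF3* (−0.60), *ELAVL4*, which encodes a neuronal RNA-binding protein (−0.59), a lncRNA gene of chromosome 9 (−0.57), and *CGNL1*, a cell junction gene (−0.56). In all 6 the WT reads outnumbered the *ORC5Δ* reads despite the smaller WT total, and all 6 intervals lay below 0.

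The origins with the most reads differed little between the lines. The highest was an exon-overlapping origin of 1680 bp in *AFAP1L2*, which encodes an actin filament-associated adaptor, with 1514 WT and 1718 *ORC5Δ* reads (220 and 202 RPM, log2 fold −0.13, −0.23 to −0.03). It lay 29656 bp from the nearest origin of another line. Other origins with very many reads lay at *NCAPG2*, a condensin II subunit gene (877 and 998 reads, log2 fold −0.12), and *RAD21L1*, a meiotic cohesin gene (820 and 967, −0.07). Another, 43336 bp from *ZNF195*, had 727 and 922 reads (0.03). All 4 had more WT reads than the median of 146 at origins listed for both lines.

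Fold was lower where reads were more. The 1960 origins with fewer than 150 reads of both lines had a median log2 fold of 0.17 and 103 of the 157 up calls, while the 89 with 500 or more had a median of −0.03 and none. Over all origins of the table, the medians in these classes were 0.09 and −0.02, and 5.26% and 1.54% were up. Fold also differed with sequence. The median was 0.10 at a GC content under 40%, 0.12 at 45% to 50%, and 0.04 at 65% or more, and over all origins of the table it was −0.04, 0.03, and −0.06. Where the absolute GC skew reached 0.7, in 70 origins, it was 0.39, and 23 of them (32.9%) were up by 1.5-fold. Among all 1639 origins of the table with such a skew, the median was 0.43 and 33.1% were up, a share close to that of the set. The 157 up origins were narrower than the rest (median 393 against 428 bp), and 17.8% of them had a GC skew of 0.6 or more, against 1.62% of the rest. A G4 motif was present in 62.4% of the up origins and 76.4% of the rest, and 3.82% and 8.85% lay at a CpG island. Part of the relation to reads is built into these values, as fold and total share the same counts.

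High GC skew was itself rare in the set. Absolute GC skew is the excess of G over C, or of C over G, as a fraction of both. An absolute skew of 0.6 or more was found in 130 of the *ORC5Δ*-only origins (2.02%), in 7.01% of the other *ORC5Δ* origins, in 4.98% of *ORC1Δ*-only origins, and in 6.68% of *ORC2Δ*-only origins. The differences, *ORC5Δ*-only minus the other set, were −4.99 percentage points (Newcombe 95% interval −5.41 to −4.54), −2.97 (−3.73 to −2.25), and −4.66 (−5.47 to −3.90). Only 66 of 29084 evenly spaced 500-bp windows of the genome (0.227%) reached this skew. In the set, the highest were the telomere-type repeat at the end of chromosome 1 (1.00, with a 61-bp run of the AACCCT unit) and an intron of *TRIQK* (1.00). Then followed *SLC30A4-AS1* (0.96), an intron of the collagen gene *COL6A3* (0.95), and a site 4628 bp from *PARK7* (0.95). All 5 had positive log2 folds, from 0.43 to 1.06, and the interval of the first (−0.13 to 1.01) included 0.

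The typical *ORC5Δ*-only origin was narrower and less GC-rich than the other *ORC5Δ* origins, and more GC-rich than an *ORC1Δ*-only origin. Median widths were 427 bp for the set and 545 bp for the other *ORC5Δ* origins. Median GC contents were 50.1% in the set, 53.8% in the other *ORC5Δ* origins, 46.7% in *ORC1Δ*-only origins, 49.1% in *ORC2Δ*-only origins, and 40% in the genome windows. Cliff's delta, the share of pairs in which the first set is higher minus the share in which it is lower, was −0.239 (95% interval −0.254 to −0.225) for GC content against the other *ORC5Δ* origins. It was 0.299 (0.278 to 0.320) against *ORC1Δ*-only and 0.082 (0.060 to 0.104) against *ORC2Δ*-only origins. The chromosome medians had these directions on 23, 23, and 19 of 23 chromosomes. The intervals treat origins as independent, although neighbours share sequence context.

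Origins that *ORC5Δ* cells shared with another knockout but not with WT had a median GC content of 50% (delta 0.010, −0.008 to 0.028). The difference from the other *ORC5Δ* origins was not seen in a common range of *ORC5Δ* reads. *ORC5Δ*-only origins had fewer *ORC5Δ* reads (median 96 against 155). Between 83 and 117 *ORC5Δ* reads, the quartiles of the set, the 3292 *ORC5Δ*-only and 7974 other origins had median GC contents of 50.2% and 50.5% and widths of 430 and 422 bp. Within this range their median *ORC5Δ* reads were 96 and 102, and WT reads were not matched. Cliff's delta for GC content was then −0.009 (−0.032 to 0.015). Among origins within 26017 bp of a WT origin it was −0.124 (−0.146 to −0.102), and the median GC content of the set was 53.0% within this distance and 48.6% beyond it.

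Absolute GC skew had a median of 0.333 in the set and 0.347 in the other *ORC5Δ* origins (Cliff's delta −0.080, −0.094 to −0.065), and the delta was −0.069 (−0.091 to −0.046) in the common range of reads and −0.203 (−0.217 to −0.189) in 500 bp around the midpoint. It was lower than in *ORC1Δ*-only origins (median 0.394, delta −0.273, −0.295 to −0.252) on all 23 chromosomes, and close to that of *ORC2Δ*-only origins (median 0.319, delta 0.035, 0.013 to 0.057). All sets were far above the genome windows, with a median of 0.0849. Absolute TA skew, the same measure for T and A, gave a delta of 0.003 (−0.011 to 0.018) against the other *ORC5Δ* origins, and −0.031 (−0.054 to −0.008) in that range. It was lower in the set than in *ORC1Δ*-only (−0.159, −0.181 to −0.137) and *ORC2Δ*-only origins (−0.126, −0.148 to −0.104).

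G4 motifs, called at a G4Hunter score of at least 1.52 in a window of 25 bases, were common in the set but less so than in other *ORC5Δ* origins. They were found in 4908 origins (76.1%), against 89.3% of the other *ORC5Δ* origins, 60.3% of *ORC1Δ*-only, and 80.2% of *ORC2Δ*-only origins. Wider origins have more room for a motif. In 300-bp windows around the midpoint the shares were 64.4%, 76.1%, 49.2%, and 66.3%, with 11.9% in the genome windows. The difference from the other *ORC5Δ* origins was −11.7 percentage points (−12.9 to −10.4), and that from *ORC1Δ*-only origins 15.2 (13.3 to 17.1). Between 83 and 117 *ORC5Δ* reads the whole-interval shares were 74.8% (73.3% to 76.2%) in the set and 82.4% (81.6% to 83.2%) in the others. The motif was on the strand with more G in 96.2% of the 4908 origins, and on either DNA strand about equally often (2472 forward and 2436 reverse). The first share is partly built in, as the score counts G as positive and C as negative.

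Exact runs of at least 24 bp with a unit of up to 6 bases, here called tandem repeats, were found in 170 *ORC5Δ*-only origins (2.64%), in 5.36% of the other *ORC5Δ* origins, and in 7.18% of *ORC2Δ*-only origins. *ORC1Δ*-only origins had 3.24%, a difference of −0.600 points whose interval (−1.28 to 0.045) included 0, and the genome windows had 3.99%. In 300-bp windows, which do not depend on width, the set had 1.81% and the other *ORC5Δ* origins 3.03%, and the difference shrank from −2.72 to −1.22 points (−1.57 to −0.820). The commonest unit was ATCC, in 25 origins. At least 4 copies of ATCC, in any rotation and on either strand, were present in 49 *ORC5Δ*-only origins (0.760%, 0.575% to 1.00%), in 2.69% of the other *ORC5Δ* origins, and in 3.29% of those shared with another knockout but not with WT. *ORC1Δ*-only (1.05%) and *ORC2Δ*-only origins (0.791%) gave differences of −0.288 (−0.684 to 0.071) and −0.0309 points (−0.377 to 0.293). In 300-bp windows the difference from *ORC1Δ*-only origins was −0.373 (−0.751 to −0.0367), with 0.605% in the set and 0.978% in *ORC1Δ*-only origins. The genome windows had 0.110%.

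Most *ORC5Δ*-only origins lay in genes, and there mainly in introns. Protein-coding genes of GENCODE release 44 held 3609 (56.0%, 54.7% to 57.2%), and 45.9% touched introns only. The other *ORC5Δ* origins had 59.0% and 42.5%, *ORC1Δ*-only origins 54.0% and 49.5%, *ORC2Δ*-only origins 53.0% and 43.9%, and the genome windows 45.1% and 39.2%. Exons were touched by 650 (10.1%), the 2 kb upstream of a gene by 318 (4.93%), and CpG islands by 563 (8.73%). In the other *ORC5Δ* origins, these shares were 16.5%, 7.23%, and 15.7%, and the differences were −6.40, −2.30, and −6.99 percentage points. All 3 intervals lay below 0. Origins shared with another knockout but not with WT had shares close to those of the set, with 8.99% at exons, 4.91% upstream, and 8.67% at islands. Against *ORC1Δ*-only origins the set was higher at exons (4.56%, difference 5.52, 4.54 to 6.47), upstream of genes (2.96%, 1.97, 1.23 to 2.70), and at CpG islands (3.51%, 5.22, 4.32 to 6.09). Against *ORC2Δ*-only origins the intervals of all 3 differences included 0, at exons from −0.0974 to 2.09 points, upstream from −0.690 to 0.92, and at islands from −1.95 to 0.210. Between 83 and 117 *ORC5Δ* reads, CpG islands were touched by 7.38% (6.54% to 8.33%) of the set and 7.76% (7.2% to 8.37%) of the other *ORC5Δ* origins.

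**Figure D4:**
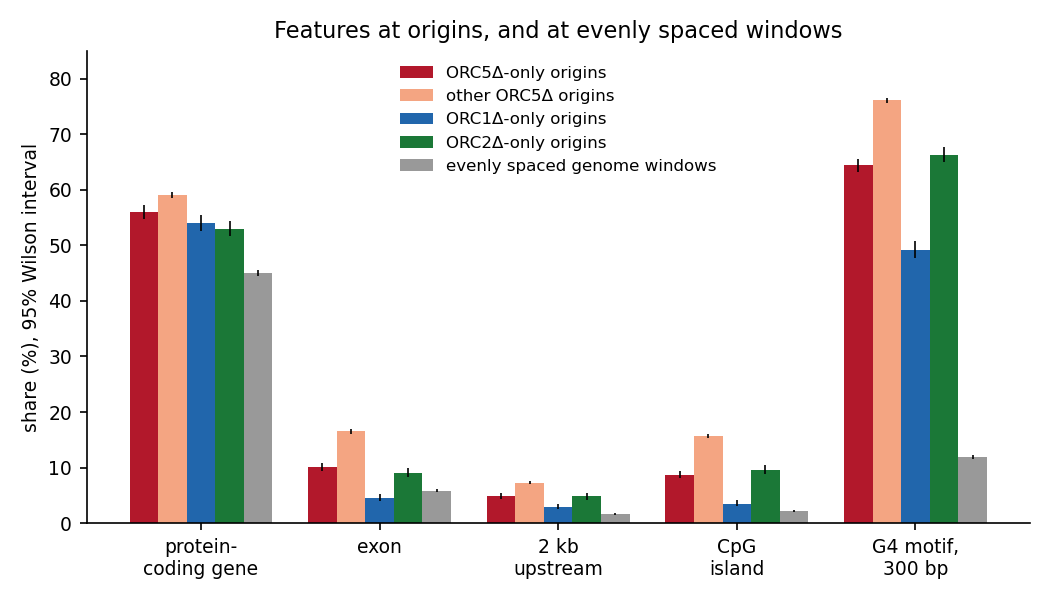
Share of origins at each feature (vertical axis, %) for *ORC5Δ*-only origins, the other *ORC5Δ* origins, *ORC1Δ*-only and *ORC2Δ*-only origins, and 29084 evenly spaced genome windows, with G4 motifs searched in 300 bp around the midpoint. Bars start at 0 and error bars are 95% Wilson intervals. At exons, CpG islands, and G4 motifs, the *ORC5Δ*-only bars lie below those of the other *ORC5Δ* origins and above those of the *ORC1Δ*-only origins.

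Of 46 genes of replication licensing and firing, 3 held an *ORC5Δ*-only origin (6.52%, 2.24% to 17.5%), each a single one, against 2467 of all 19962 protein-coding genes (12.4%). The interval includes the share of all genes, and *ORC1Δ*-only and *ORC2Δ*-only origins lay in 3 and 4 of the 46. They were chosen after their values were seen. One lay in an intron of *ORC5* itself (chr7:104128251-104128690), with 53 WT and 81 *ORC5Δ* reads and a log2 fold of 0.30 (−0.21 to 0.83). It lay 335171 bp from the nearest origin of another line. The origin at *MCM2*, the gene of a helicase subunit, had 61 and 88 reads (0.22, −0.27 to 0.71), and the one in *PRIM1*, the gene of the small primase subunit, had 66 and 71 (−0.20, −0.71 to 0.30). All 3 intervals included 0, and no WT origin was listed in these genes.

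Of 33 genes of colorectal cancer and gut epithelium, 4 had *ORC5Δ*-only origins, a share (12.1%) near that of all genes. *EGFR*, the epidermal growth factor receptor gene, held 3, beside 2 WT origins. The origin of *EGFR* shown above had 177 WT and 237 *ORC5Δ* reads (log2 fold 0.11, −0.18 to 0.40). *TCF7L2*, which encodes the main transcription factor of Wnt signalling in the gut, held 2, with 185 and 228 reads in one (−0.01) and 113 and 150 in the other (0.10). *ARID1A*, a chromatin remodeller subunit gene, and *KLF5*, a transcription factor gene of the intestinal crypt, held 2 each and no WT origin. An exon-overlapping origin in *ARID1A* had 110 and 176 reads (log2 fold 0.37, 0.02 to 0.73).

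Long genes of common fragile sites replicate late and break under replication stress. Of 22 such genes, 12 held *ORC5Δ*-only origins (54.5%, 34.7% to 73.1%), against 12.4% of all protein-coding genes. These long genes have a median length of 1460 kb, against 27.5 kb over all protein-coding genes. The part of gene length in this share was not tested. *IMMP2L*, a mitochondrial peptidase gene, *MAGI2*, a synaptic scaffold gene, and *PDE4D*, a cAMP phosphodiesterase gene, held 4 each. No WT origin was listed in *IMMP2L*, *PDE4D*, *DLG2*, *CTNNA3*, or *GPC6*. In the same 22 genes, 7 held an *ORC1Δ*-only and 8 an *ORC2Δ*-only origin. An *ORC5Δ* origin of any kind was listed in 17 of the 22, against 8782 of all 19962 protein-coding genes. The 2 origins in *LSAMP*, a neural adhesion gene, had 115 WT and 161 *ORC5Δ* reads (log2 fold 0.18) and 103 and 157 reads (0.30), and one in *CNTNAP2* had 117 and 158 (0.12). An origin at *NBEA* was the most covered, with 285 and 329 reads (−0.10). All 4 intervals included 0.

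The densest run was on chromosome 2 (chr2:219028284-219127226), across *IHH*, the gene of Indian hedgehog, *NHEJ1*, an end-joining factor gene, and *CFAP65*, a ciliary gene. All 7 *ORC5Δ* origins there were *ORC5Δ*-only and no WT origin was listed. WT reads ran from 42 to 104 and *ORC5Δ* reads from 78 to 128, with a median log2 fold of 0.25 (range −0.01 to 0.66). In the 63 origins listed for both lines within 1 Mb, the median was −0.04. Over the whole set and all origins listed for both lines the medians were 0.10 and −0.04, and the rule itself favours this direction. A run at *PHACTR3* (chr20:59736268-59828996) held 6 of 7 *ORC5Δ* origins and a run on chromosome 1 (chr1:119244600-119313446), which overlaps no protein-coding gene, held 5 of 5. Their median log2 folds were −0.01 and 0.01, against −0.06 and −0.08 in the 30 and 5 origins listed for both lines within 1 Mb. Both runs had no WT origin in the list, yet at least 55 WT reads at every *ORC5Δ*-only origin.

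By chromosome, the set made up 8.11% (7.17% to 9.15%) of the *ORC5Δ* list on chromosome 19 and 21.1% (19.3% to 23.1%) on chromosome 6. Chromosomes 16, 17, 20, 21, 22, and X were also at or below 13.0%. *ORC1Δ*-only and *ORC2Δ*-only origins had their lowest share on chromosome 19 too (3.56% and 6.62%). The highest *ORC1Δ*-only share was on chromosome 13 (22.9%), where the *ORC5Δ*-only share was 19.2%.

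**Figure D5:**
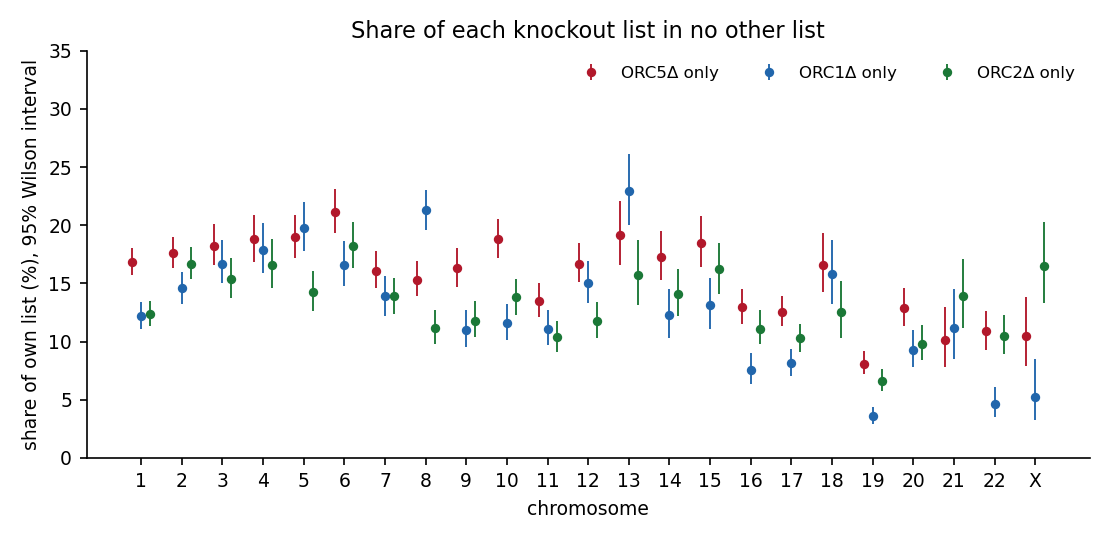
Share of each knockout list that overlaps no origin listed for another line (vertical axis, %), by chromosome (horizontal axis), with 95% Wilson intervals. On chromosome 19 all 3 knockouts have a low share, and the *ORC5Δ*-only share is 8.11%.

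The share was lower in regions with more WT origins. In 5-Mb blocks with fewer than 5 WT origins, 100 of 326 *ORC5Δ* origins (30.7%, 25.9% to 35.9%) were *ORC5Δ*-only. In blocks with at least 120 WT origins it was 1503 of 14965 (10.0%, 9.57% to 10.5%), and the 4 classes between lay in order. The same held for the other knockouts, from 37.5% to 5.67% for *ORC1Δ*-only and from 25.6% to 8.42% for *ORC2Δ*-only origins. An overlap with a WT origin is less likely where these are few, and the part of the rule in this order was not tested. At origins listed for both lines, the median log2 fold of a block was close to 0. Of 323 blocks with at least 20 origins listed for both lines, 1 had a median log2 fold beyond 0.25, and the medians ran from −0.28 to 0.16.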

How the data were processed

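SNS-seq was done on 4 HCT116 lines with 2 biological replicates each. Per the labels, the authors trimmed reads with Trim Galore 0.6.4, aligned them to hg38 with Bowtie, called peaks with MACS2, and compared peaks with bedtools. They deposited, for each line, the positions of the peaks present in both replicates, and, for each knockout, a table of read counts with the replicates merged over the joint origins of that line and WT. The counting tool and the treatment of duplicate reads are not given in the sources used here.

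From these, origins with no overlap of 1 bp or more with another list were taken on chromosomes 1 to 22 and X. Members and lists were chosen with earlier results of these data known. RPM is the count scaled to the summed counts of that line over all origins of its table. Total counts were 6878409 in WT and 8523971 in *ORC5Δ* cells. A 1.5-fold difference in RPM was the threshold. Count intervals are exact Clopper-Pearson, shares have Wilson and differences of shares Newcombe intervals, and Cliff's delta has an analytic interval, all at 95%. They leave out the spread between cultures, and reads are not independent molecules. Sequence was read from hg38 and genes from GENCODE release 44. CpG islands were found by a running score (17 for CpG, −1 otherwise) with at least 200 bp, 50% GC, and a CpG ratio of 0.6.

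Origins named were those with the highest and lowest fold at 100 or more reads of both lines, the most reads, the highest skew, the highest and lowest GC content, the smallest gap, and the most reads in listed genes. Those in replication genes and the top genes by number were chosen after seeing the data. The calling of 1.5-fold origins was tested on simulated counts for *ORC5Δ* against WT (46463 origins), where 200 of 200 origins changed by a median log2 fold of 1.58 were recovered and 0.283% of the unchanged ones were called up. The simulated counts held counting error alone, and the changed origins were drawn from those above a minimum of reads. The share of 0.283% thus leaves out the spread between cultures and is not a rate of false calls in the real counts. Recovery of smaller folds was not tested. Sequences were handled with samtools 1.23.1, pysam 0.24.0, and numba 0.67.0 in Python 3.11.15. Values were computed with scipy 1.17.1, pandas 2.3.3, and numpy 2.4.6 and plotted with matplotlib 3.10.9. R 4.3.3 with edgeR 4.0.16 gave normalization factors only. Repeat annotation was not used here, and some named origins and sequences are not reported here.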

Additional observations from a re-analysis of the deposited data

How the results depend on the processing

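No paired analysis was possible because the replicates of each line were merged in the count tables used here, and for the same reason no replicate could be left out. Of 75 alternative values, 45 were classed as unchanged. For counts this meant within 1.5-fold, and for medians and shares within the reported interval. For Cliff's delta it meant only the same sign and the same inclusion or exclusion of 0, so its size could differ. Against the other *ORC5Δ* origins, GC content near WT origins (−0.124 in place of −0.239) and GC skew in 500 bp (−0.203 in place of −0.080) were so classed. With the narrower intervals of each list left out, by its median width, there were 3679 *ORC5Δ*-only origins. Keeping those within the neighbour distance of a WT origin left 2576, with a median log2 fold of 0.13, 68 up and 0 down by 1.5-fold, and shares of 59.6% in genes, 11.3% at exons, and 78.6% with a G4 motif. Those near all 3 other lists numbered 1877. Beyond the WT distance the median was 0.08, with 89 up. These distance settings and the comparison in a common range of reads were chosen after seeing the data.

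Scaling to reads in origins listed for both lines gave a median log2 fold of 0.12 and 2 down, and a correction over GC content gave 0.09. With at least 200 reads, the median was 0.05, with 19 up and 1 down. At a log2 threshold of 0.32 in place of 0.58, 1047 were up and 95 down, and at 2-fold 3 and 0. The lower GC content against the other *ORC5Δ* origins did not hold at 83 to 117 *ORC5Δ* reads (delta −0.009). GC skew against *ORC2Δ*-only origins turned to −0.012 near WT origins, where the interval included 0. TA skew against the other *ORC5Δ* origins turned to −0.055 in windows of 500 bp around the midpoint and to −0.031 at 83 to 117 reads. Counting genes of all kinds, 69.5% lay in a gene. By the midpoint alone, 5.75% lay at a CpG island, 3.89% upstream of a gene, 4.3% at an exon, and 14.3% in a G4 motif. The cause of these shifts was not tested. With no replicate values, a difference between lines smaller than that between cultures could not be told from it at any depth.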

Other observations

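*ORC5Δ*-only origins were less frequent near chromosome ends than the other *ORC5Δ* origins. Within 2 Mb of an end lay 285 of them (4.42%, 3.94% to 4.95%), against 3478 of the other *ORC5Δ* origins (9.97%, 9.66% to 10.3%) and 2.74% of the genome windows (2.56% to 2.93%).

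The genes with the most *ORC5Δ*-only origins were named after the counts were seen. *DAB1*, which encodes an adaptor of reelin signalling, held 10 of 21 *ORC5Δ* origins. *KCNIP1*, a potassium channel-interacting protein gene, held 9 of 13, *AFF3*, a gene of a nuclear transcription regulator, 9 of 17, and *RBFOX1*, a splicing factor gene, 9 of 38. In *KCNQ5*, a potassium channel gene, and *TLN2*, which encodes the focal adhesion protein talin-2, all 7 *ORC5Δ* origins were *ORC5Δ*-only, and neither gene had a WT, *ORC1Δ*-only, or *ORC2Δ*-only origin. *KCNQ5* spans 577.1 kb and *TLN2* 454.1 kb. *DAB1* spans 1552 kb, *KCNIP1* 383.1 kb, *AFF3* 647 kb, and *RBFOX1* 2474 kb, with 8, 2, 5, and 15 WT origins. The part of gene length in these counts was not tested.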
